A study of Mus musculus with 6 samples.

Results

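The genes described here are 10 well-known transcriptional targets of the tumour suppressor p53: Bbc3, Bax, Cdkn1a, Mdm2, Zmat3, Fas, Ccng1, Trp53inp1, Pmaip1 and Phlda3. Every array probe that the platform annotation assigns to one of these symbols was taken, which gave 17 probes for 9 of the 10 genes, among 20983 probes with a symbol for 15967 genes in all. No probe was used for Bax, so its transcript was not analysed here and only its promoter was searched. The arrays detected 11 of the 17 probes well enough to be tested, and these represented 8 genes; the 3 probes of Pmaip1 were not among them.

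The cells were megakaryocyte progenitors, precursors of the marrow cells that shed platelets, from C57BL/6 mice. Lineage-depleted marrow was kept overnight in stem cell factor and thrombopoietin, sorted for c-kit and CD41, and grown for 3 days in thrombopoietin. In the knockout group (3 arrays) Srf, the gene of serum response factor, was deleted by a Cre recombinase under the Pf4 promoter, which is active in the megakaryocyte lineage; the wild-type group (3 arrays) had intact Srf. The labels count 3 mice per genotype without tying each array to an animal, so the spread behind a p-value is that between arrays; whether each wild-type mouse carried Cre is not stated. Srf itself checked the labels: its tested probe (ILMN_2769688) lay at log2 7.35, 7.56 and 7.20 in the knockout and at 12.31, 11.89 and 11.98 in the wild-type, a difference of -4.69 (SE 0.17, limma adjusted p = 5.4e-05).

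p53 is a transcription factor that is held at a low level by the ubiquitin ligase Mdm2 and builds up after DNA damage, oncogene activity or ribosomal stress. It then switches on genes that stop the cell cycle, among them Cdkn1a, and genes that start apoptosis through mitochondria, among them Bbc3, or through death receptors, among them Fas. In the megakaryocyte lineage p53 is known to restrain the repeated DNA replication without division by which these cells become polyploid.

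p53 binds DNA as a tetramer over a pair of half-sites of 10 bases. RefSeq promoter sequences (mouse build GRCm38.p6, 250 bases before to 50 after each start) were at hand for 7 of the 10 genes, in 10 windows. They were searched on both strands for 2 adjacent p53 half-sites with at most 3 mismatches to the consensus in 20 bases, the C and the G of each core kept. Such a stretch stood in 3 of the 10 windows, 1 each of Cdkn1a, Ccng1 and Bbc3, and in 1.38% of all 32851 windows of that length. The sequences are shown because p53 is the factor that these genes share. Capitals mark the matching 20 bases, and coordinates are those of the whole stretch shown.
Cdkn1a: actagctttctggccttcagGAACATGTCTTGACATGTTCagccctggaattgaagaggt
Ccng1: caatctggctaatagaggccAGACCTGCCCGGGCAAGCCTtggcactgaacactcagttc
Bbc3: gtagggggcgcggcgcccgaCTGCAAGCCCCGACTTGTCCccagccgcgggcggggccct

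The Cdkn1a stretch (chr17:29090908-29090967, plus strand) had 1 mismatch and began 51 bases before one of the gene's 2 starts. That of Ccng1 (chr11:40755442-40755501, minus strand) also had 1 mismatch and began 195 bases before the start. In Bbc3 (chr7:16309466-16309525, plus strand) the stretch had 3 mismatches and began 97 bases before one of the gene's 3 starts. A single half-site without mismatch stood in 4 of the 10 windows, those of Bax, Mdm2, Ccng1 and Cdkn1a, and in 8.36% of all windows. The CArG box, the motif that SRF binds, was searched on both strands without mismatch and stood in none of the 10 windows and in 1.63% of all windows. These are matches of letters in a window, not measured binding.

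The comparison asked whether transcripts of these genes differed in progenitors without Srf. By mean, 7 of the 8 tested genes were higher in the knockout and Mdm2 was marginally lower, with a median difference of 0.52 on the log2 scale against -0.01 over all 6869 tested genes, of which 49% were higher. No probe of the 11 passed limma's test at an adjusted p under 0.05 over all 9403 tested probes, a threshold that 0.160% of tested probes passed. At an unadjusted p under 0.05, 5 of the 11 probes were higher and none was lower, where 7.75% of all tested probes were higher. That count changed when 1 array was left out, and so did the share of all tested probes. Dropping knockout replicate 1, 2 or 3 gave 1, 2 or 7 of 11, against 5.88%, 5.18% or 5.64% of all tested probes. Dropping wild-type replicate 1, 2 or 3 gave 6, 1 or 3 of 11, against 15.1%, 4.03% or 3.64%. How much of a fall came from having fewer arrays was not tested. With the arrays scaled to their 75th percentile the count was 2 of 11, against 6.5%. On the values of the main fit, 5 of 11 probes for 4 genes had every knockout array above every wild-type array, as did 9.77% of all tested probes. Fas and the dimmer Bbc3 probe entered the test only through their detection on the knockout arrays, and probes of 1 gene share their target, so these counts describe the probes and are not a test of the group.

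**Figure D1:**
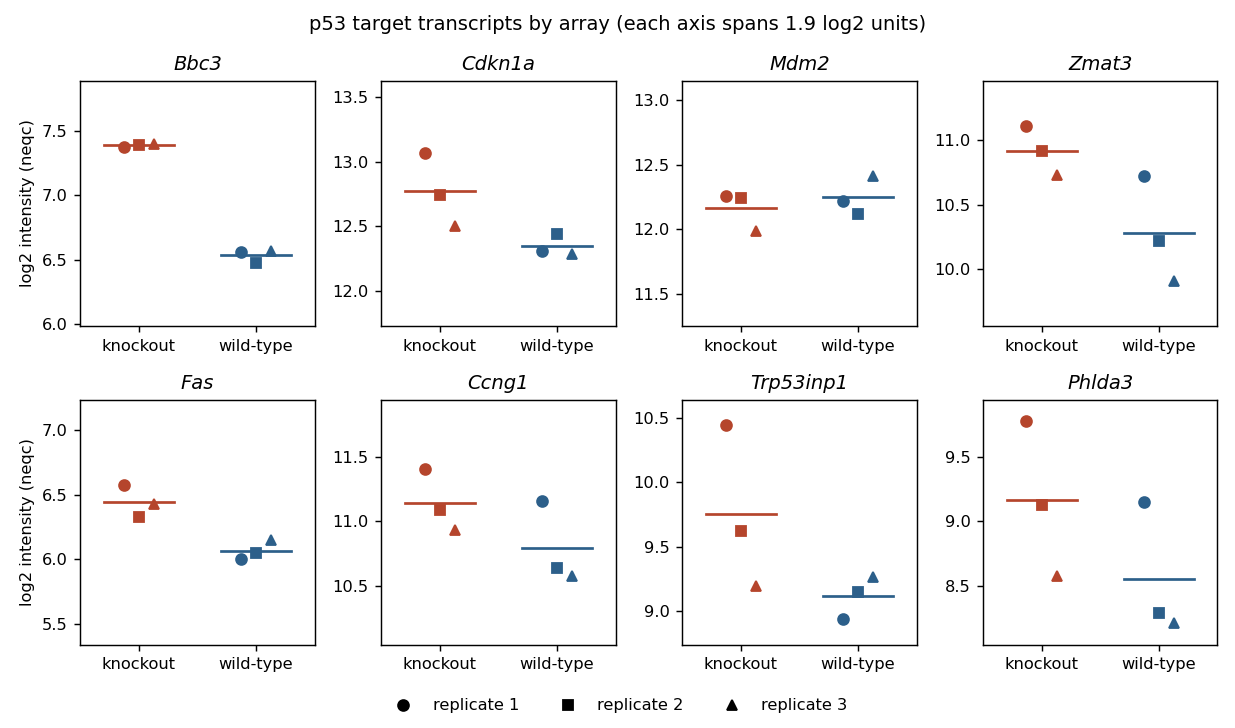
Normalized log2 intensity of the 8 tested p53 targets, 1 probe per gene, with 3 knockout arrays left and 3 wild-type arrays right in each panel; symbols give the replicate, horizontal lines the group means, and every vertical axis spans the same range. The groups are apart for Bbc3, Cdkn1a, Zmat3 and Fas and overlap for Mdm2, Ccng1, Trp53inp1 and Phlda3.

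Among the genes of apoptosis, Bbc3 held the probe with the smallest p of the 11 tested. It encodes PUMA, a BH3-only protein that frees and activates the pore-forming proteins of the mitochondrial outer membrane. Its brighter probe (ILMN_2690620) lay at log2 7.37, 7.39 and 7.40 in the knockout and at 6.56, 6.47 and 6.57 in the wild-type. The groups were far apart relative to the spread within either. The knockout spread (SD 0.01) was, however, smaller than the bead error of single arrays, with bead standard errors of 21.4, 24.9 and 40 raw units. The difference was 0.85 (SE 0.12, 95% interval 0.56 to 1.14), or 1.81-fold, with a limma adjusted p of 0.080. With limma variances that follow intensity (eBayes with trend and robust) the SE was 0.22 and the adjusted p 0.24. In the main fit the probe stood 18th of 9403 by p. It was a dim probe, close to the background: raw intensities were 291, 378 and 397 in the knockout and 256, 231 and 219 in the wild-type, with detection p of 0.0036, 0.0024 and 0.0024 against 0.019, 0.015 and 0.019. The size of a difference between such dim levels rests on the background correction, and it was 0.50 with another correction, 0.37 without any and 0.24 on the authors' processed scale, on which the values were 8.65, 8.66 and 8.66 in the knockout and 8.42, 8.41 and 8.43 in the wild-type. All 3 knockout arrays thus stayed above all 3 wild-type arrays on the authors' scale too.

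The second Bbc3 probe (ILMN_1238917) lay at 6.76, 6.68 and 6.11 in the knockout and at 6.09, 5.64 and 6.09 in the wild-type. It was detected on all 3 knockout arrays and on 1 wild-type array. Knockout replicate 3 sat only just above the wild-type arrays, and the difference was 0.58 (SE 0.22, adjusted p = 0.34).

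Fas encodes the death receptor CD95, through which Fas ligand starts caspase activation at the cell surface. Its tested probe (ILMN_2479290) lay at 6.58, 6.33 and 6.43 in the knockout and at 6.00, 6.05 and 6.15 in the wild-type, where 2 of 3 arrays detected it. The groups were apart by a small margin, with a difference of 0.38 (SE 0.14, adjusted p = 0.33). On the authors' processed scale the group means were 8.40 and 8.32. The other Fas probe (ILMN_2454420) was detected on no array.

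Trp53inp1 encodes a stress protein that promotes p53 phosphorylation and takes part in autophagy-dependent cell death. It lay at 10.44, 9.62 and 9.19 in the knockout and at 8.94, 9.15 and 9.26 in the wild-type. Knockout replicate 1 was more than 1 log2 unit above every wild-type array, whereas knockout replicate 3 lay among them. The mean difference of 0.63 (SE 0.30, adjusted p = 0.39) dropped to 0.29 without knockout replicate 1.

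Phlda3, a pleckstrin homology protein that competes with the survival kinase Akt for membrane lipids, lay at 9.78, 9.13 and 8.58 in the knockout and at 9.15, 8.29 and 8.21 in the wild-type. Wild-type replicate 1 was above 2 of the 3 knockout arrays. The difference of 0.61 had an SE of 0.35 and a 95% interval of -0.21 to 1.43 (adjusted p = 0.45), and it was 0.30 without knockout replicate 1.

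Pmaip1 encodes NOXA, a second BH3-only protein. Of its 3 probes, ILMN_2670625 was detected on 2 knockout arrays and 1 wild-type array, ILMN_1245289 on 1 wild-type array and ILMN_2724526 on none. The first lay at 6.77, 5.22 and 5.98 in the knockout and at 5.69, 6.66 and 5.83 in the wild-type, so the groups overlapped throughout. None of the 3 was tested, and a difference was not detectable at this signal.

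Among the genes of cell-cycle arrest and feedback, Cdkn1a encodes p21, the inhibitor of cyclin-dependent kinases through which p53 halts the cycle. Both probes were bright on every array. The first (ILMN_2634083) lay at 13.07, 12.74 and 12.50 in the knockout and at 12.31, 12.44 and 12.28 in the wild-type, and the groups were apart by a small margin. Its difference was 0.43 (SE 0.17, 95% interval 0.02 to 0.83, adjusted p = 0.35), and it was 0.28 without knockout replicate 1. The second (ILMN_1214871) lay at 12.32, 12.54 and 11.95 in the knockout and at 12.11, 12.23 and 11.91 in the wild-type. The groups overlapped on it, and the difference was 0.19 (SE 0.19, 95% interval -0.25 to 0.62, adjusted p = 0.66).

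Mdm2, the ubiquitin ligase that p53 induces and that in turn marks p53 for degradation, lay at 12.26, 12.24 and 11.99 in the knockout and at 12.22, 12.12 and 12.41 in the wild-type. The arrays of the groups were interleaved. The difference was -0.09 (SE 0.15, adjusted p = 0.81), and its 95% interval of -0.44 to 0.26 leaves room for a modest difference in either direction. A second Mdm2 probe (ILMN_1229882) was detected only on wild-type replicate 2.

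Ccng1 encodes cyclin G1, which recruits a phosphatase to Mdm2. The brighter probe (ILMN_2710229) lay at 11.41, 11.09 and 10.93 in the knockout and at 11.16, 10.64 and 10.58 in the wild-type. The other tested probe (ILMN_2702233) lay at 11.31, 11.08 and 10.62 in the knockout and at 10.86, 10.11 and 10.30 in the wild-type. On both, wild-type replicate 1 was within the range of the knockout arrays. The differences were 0.35 (SE 0.21, adjusted p = 0.45) and 0.58 (SE 0.25, adjusted p = 0.36), and the first was 0.21 without knockout replicate 1. One more probe (ILMN_2689489) was detected on no array.

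Zmat3, a zinc finger protein that binds RNA and regulates splicing and transcript stability, lay at 11.11, 10.92 and 10.73 in the knockout and at 10.72, 10.22 and 9.91 in the wild-type. Knockout replicate 3 and wild-type replicate 1 were nearly level, so the groups were only just apart. The difference was 0.63 (SE 0.22, 95% interval 0.11 to 1.15, adjusted p = 0.33).

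**Figure D2:**
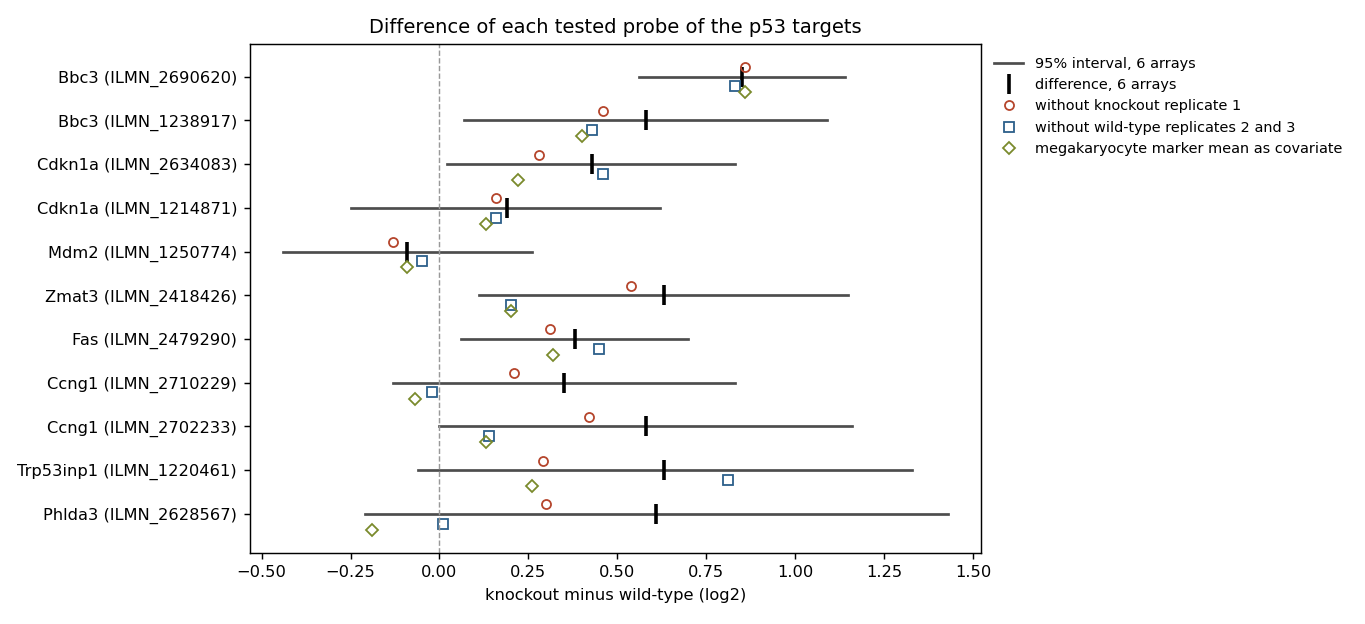
Knockout minus wild-type difference on the log2 scale for the 11 tested probes of the p53 targets, with 95% intervals from all 6 arrays (lines) and the value without knockout replicate 1, without wild-type replicates 2 and 3, and with the megakaryocyte marker mean in the model (open symbols). The brighter Bbc3 probe lies between 0.83 and 0.86 in the 3 other fits, while the Phlda3 probe ranges from -0.19 to 0.30.

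The arrays of each group did not lie level across the members. Each gene's deviation from its own mean over the 6 arrays was taken, and the median over the 8 tested genes was 0.47, 0.18 and -0.05 in knockout replicates 1 to 3 and -0.12, -0.30 and -0.33 in wild-type replicates 1 to 3. Knockout replicate 1 was the highest knockout array for 7 of the 8 genes, and Bbc3 was the exception. That array also had the least even beads, with a median standard error over the beads of a tested probe of 9.53% of its raw intensity, against 4.59% to 6.35% on the other 5 arrays. Without it the median difference of the 8 genes was 0.30, and that of Bbc3 was 0.86.

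Markers of cell types differed among the arrays as well. All 13 megakaryocyte markers with a probe, among them Itga2b, which encodes CD41, were detected on all 6 arrays. Their mean was 12.57, 12.17 and 12.23 in the knockout and 12.20, 11.95 and 11.84 in the wild-type. It was highest on knockout replicate 1 and lowest on wild-type replicates 2 and 3, as was the median of the p53 targets. Single markers did not all follow that mean. By group mean 12 were higher in the knockout and 1 was lower. That 1 was the brightest, Ppbp, at 14.51, 14.34 and 14.69 in the knockout and 15.47, 15.47 and 15.06 in the wild-type. Cd9, Clec1b and Treml1 were lowest on wild-type replicate 1. In such bulk RNA, fewer cells of a type and less RNA per cell cannot be told apart. The mean of 13 granulocyte markers, of which 8 were detected on all arrays, ran from 6.84 to 9.78 in the knockout and from 7.03 to 9.77 in the wild-type. Of these 13, 10 were tested, with 4 higher and 6 lower by mean in the knockout. The brightest of them, Mpo, which encodes myeloperoxidase, lay at 13.07, 8.13 and 8.98 in the knockout and at 7.64, 14.74 and 14.93 in the wild-type. S100a8, picked after its values were seen, was instead highest on knockout replicate 1. It lay at 13.23, 8.72 and 9.57 in the knockout and at 9.37, 10.87 and 11.20 in the wild-type. The mean of 13 mast cell and basophil markers ran from 6.08 to 6.32 in the knockout and from 5.96 to 8.05 in the wild-type, high only on wild-type replicates 2 and 3. Of these 13, 2 were detected on all arrays and 6 on none; the brightest, Gata2, is also a megakaryocyte gene, and the protease gene Cpa3, picked after its values were seen, lay at 8.21, 7.17 and 8.09 in the knockout and at 6.62, 12.64 and 12.88 in the wild-type. The mean of 10 erythroid markers ran from 6.74 to 6.90 in the knockout and from 6.72 to 7.79 in the wild-type. Of these 10, 4 were detected on no array and 4 were tested, with 2 higher and 2 lower by mean in the knockout. The brightest, the transferrin receptor gene Tfrc, ran from 12.56 to 13.13 in the knockout and from 12.42 to 12.68 in the wild-type. Epor, the other one higher by mean, ran from 8.27 to 8.64 in the knockout and from 7.98 to 8.52 in the wild-type. Picked after their values were seen, the water channel gene Aqp1 lay at 8.19, 7.88 and 7.97 in the knockout and at 8.40, 10.18 and 10.30 in the wild-type, and Klf1, an erythroid transcription factor gene, at 7.05, 6.28 and 6.89 in the knockout and at 6.70, 8.64 and 9.20 in the wild-type. The carbonic anhydrase gene Car1, chosen likewise, was detected only on wild-type replicates 2 and 3. The lysozyme gene Lyz2, the brightest of 5 monocyte markers, ran from 11.17 to 11.98 in the knockout and from 10.97 to 11.41 in the wild-type. Of the same 5, and also picked after the fact, Ly6c1 lay at 10.93, 7.31 and 8.32 in the knockout and at 6.25, 12.06 and 12.46 in the wild-type, and Adgre1 was detected only on wild-type replicates 2 and 3.

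**Figure D3:**
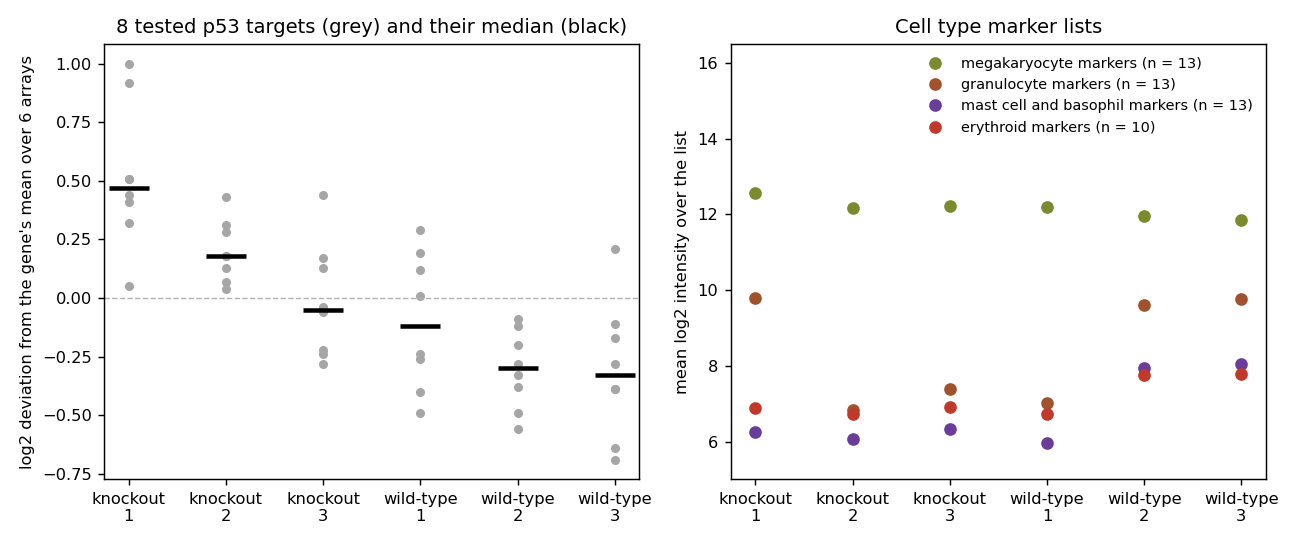
Left, log2 deviation of each of the 8 tested p53 targets from its own mean on every array (grey points) with the median of the 8 (black bars); right, mean log2 intensity of 4 cell type marker lists on the same arrays. The medians are 0.47 on knockout replicate 1 and -0.33 on wild-type replicate 3, and the mean of the megakaryocyte markers is highest and lowest on the same 2 arrays.

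The members differed in how far their values moved in fits that took these arrays or markers into account. With wild-type replicates 2 and 3 left out, so that the knockout was set against wild-type replicate 1 alone and the spread came from the knockout arrays only, the brighter Bbc3 probe differed by 0.83 and the dimmer by 0.43. The 2 Cdkn1a probes differed by 0.46 and 0.16, Fas by 0.45 and Trp53inp1 by 0.81. Those of Zmat3, Phlda3 and the brighter Ccng1 probe were 0.20, 0.01 and -0.02, since wild-type replicate 1 lay near the knockout arrays on them. With the mean of the megakaryocyte markers in the model, an alternative added after seeing the data, the Bbc3 probes stood at 0.86 and 0.40 and Fas at 0.32, against 0.26 for Trp53inp1, 0.22 and 0.13 for the Cdkn1a probes, 0.20 for Zmat3, -0.07 for the brighter Ccng1 probe and -0.19 for Phlda3. The median over the 8 genes was 0.21 in that fit. The brighter Bbc3 probe had an adjusted p of 0.70 in the fit with 1 wild-type array and of 0.82 in that with the marker mean; with so few arrays, not passing there says little about a member. With the mast cell and basophil marker mean in the model Bbc3 (brighter probe) stood at 0.83 and the median at 0.36. The part of the granulocyte, erythroid and monocyte markers in the result was not tested.

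The number of members that passed moved with wild-type replicate 1 and with the weighting of arrays. Without that array, the brighter Bbc3 probe (0.87, limma adjusted p = 0.018) and Zmat3 (0.85, adjusted p = 0.039) passed, in a fit that called 639 of the 9403 probes, 351 of them higher. With array weights and all 6 arrays, 5 member probes passed, both of Bbc3 and 1 each of Zmat3, Fas and Ccng1, among 1955 probes called. Bbc3 did not pass with any other single array left out (adjusted p 0.26 to 0.43).

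By pattern over the 6 arrays, the tested genes closest to the brighter Bbc3 probe were Zfyve27, Usp46, Ankrd23 and Paip2b. Likeness was the root mean square difference between the centred log2 values of 2 genes, among 6868 other tested genes, and the 4 stood at 0.068, 0.101, 0.123 and 0.126. Zfyve27, which encodes the endoplasmic reticulum protein protrudin, lay at 7.23, 7.21 and 7.37 in the knockout and at 6.54, 6.42 and 6.58 in the wild-type. Usp46 lay at 6.38, 6.18 and 6.25 in the knockout and at 5.45, 5.50 and 5.33 in the wild-type. Ankrd23 lay at 6.20, 6.42 and 6.49 against 5.64, 5.27 and 5.65. Both had wild-type values at the level of undetected probes and entered the test only through the knockout arrays. Their likeness to Bbc3 was thus partly built in by the filter. Of the other p53 targets, Fas was the closest to Bbc3, at 0.254 and place 142, and Mdm2 the farthest, at 0.482 and place 3624.

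The rest of the p53 pathway was read from 4 lists. None of the tested genes of these lists passed over all probes, where 0.160% of probes did. The counts at an unadjusted p under 0.05 given below stand against 7.75% of all tested probes higher and 5.97% lower. With array weights, 9 of the 12 genes named from these lists passed, all but Fbxw7, Sesn2 and Cdkn2a. That fit called 1955 of the 9403 probes. The 12 genes were picked by smallest p in these same data, so a high count was built in. Of 31 further p53 targets, 23 were tested; 15 were higher and 8 lower by mean, with a median of 0.12, and at an unadjusted p under 0.05 there was 1 in each direction. One of the 15 higher, Sesn2, was tested only through its detection on the knockout arrays. The 3 with the smallest p were Fbxw7, Xpc and Sesn2. Fbxw7, the substrate receptor of a ubiquitin ligase for cyclin E and Myc, differed by 0.53 (SE 0.22), and by 0.29 without knockout replicate 1. Sesn2, a sestrin that restrains mTORC1, was detected on 3 knockout arrays and 1 wild-type array and differed by 0.47 (SE 0.21), and by 0.29 without wild-type replicate 3. Xpc, which recognises damaged DNA in nucleotide excision repair, lay at 7.60, 7.32 and 7.12 in the knockout and at 7.19, 9.56 and 10.18 in the wild-type. Its difference of -1.63 (SE 0.67, adjusted p = 0.35) came from wild-type replicates 2 and 3, and was 0.15 without them; it passed without wild-type replicate 1 (-2.52, adjusted p = 0.0032).

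Of 22 genes that control p53, 13 were tested, with 8 higher, 5 lower and a median of 0.05, and 1 in each direction at an unadjusted p under 0.05; of the 8 higher, 1 was tested only through the knockout arrays. Trp53bp1, which binds chromatin at DNA breaks, differed by -0.54 (SE 0.18, adjusted p = 0.33) on its brighter probe and by 0.04 on the other. The brighter one passed without wild-type replicate 1 (-0.69, adjusted p = 0.044) and stood at -0.23 without wild-type replicates 2 and 3. Cdkn2a, whose ARF product inhibits Mdm2, differed by 0.52 (SE 0.22) and 0.71 (SE 0.23) on its 2 probes, with adjusted p of 0.36 and 0.33. The first was 0.29 without knockout replicate 1 and 0.04 with the megakaryocyte marker mean. Hipk2, a kinase that phosphorylates p53, differed by 0.86 (SE 0.44), by 1.30 without knockout replicate 1 and by 0.54 without wild-type replicate 3, and its groups overlapped.

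Of 29 BCL2 family, caspase and partner genes, 16 were tested, with 10 higher, 6 lower and a median of 0.02, and again 1 in each direction at that p. Bcl2l1 encodes BCL-XL, the anti-apoptotic protein that PUMA binds and that sets platelet lifespan. Its brightest probe (ILMN_2698430) lay at 10.68, 10.32 and 10.42 in the knockout and at 10.45, 9.02 and 8.87 in the wild-type. Wild-type replicate 1 lay within the knockout range, and the difference of 1.03 (SE 0.39, adjusted p = 0.34) was 0.02 without wild-type replicates 2 and 3. It passed without wild-type replicate 1 (1.53, adjusted p = 0.0051). The other 2 Bcl2l1 probes differed by 1.51 (SE 0.43, adjusted p = 0.32) and 1.44 (SE 0.53, adjusted p = 0.33). The first was detected on only 2 wild-type arrays, so it was tested through the knockout arrays alone. On the second, wild-type replicate 1 (8.99) again lay within the knockout range (8.82 to 9.21). Diablo, which relieves caspase inhibition after release from mitochondria, differed by -0.34 (SE 0.14, limma adjusted p = 0.35). Htra2, a mitochondrial protease with a like role, differed by 0.31 on its brighter probe (SE 0.17, limma adjusted p = 0.43). On its other probe the groups overlapped, with a difference of 0.18 (SE 0.21, limma adjusted p = 0.71).

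Of 22 cyclins, cyclin-dependent kinases, their partners and their inhibitors other than p21, 17 were tested. By mean 8 were higher and 9 lower, with a median of -0.01, and 4 were higher and 2 lower at that p. Ccne2, a cyclin of entry into S phase, differed by -0.70 (SE 0.22, adjusted p = 0.32). Cdkn2d, an inhibitor of Cdk4 and Cdk6, differed by 0.60 (SE 0.21) and Cdk6 by 0.45 (SE 0.16), both with an adjusted p of 0.33. Without wild-type replicates 2 and 3 these 2 stood at 0.26 and 0.24.

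**Figure D4:**
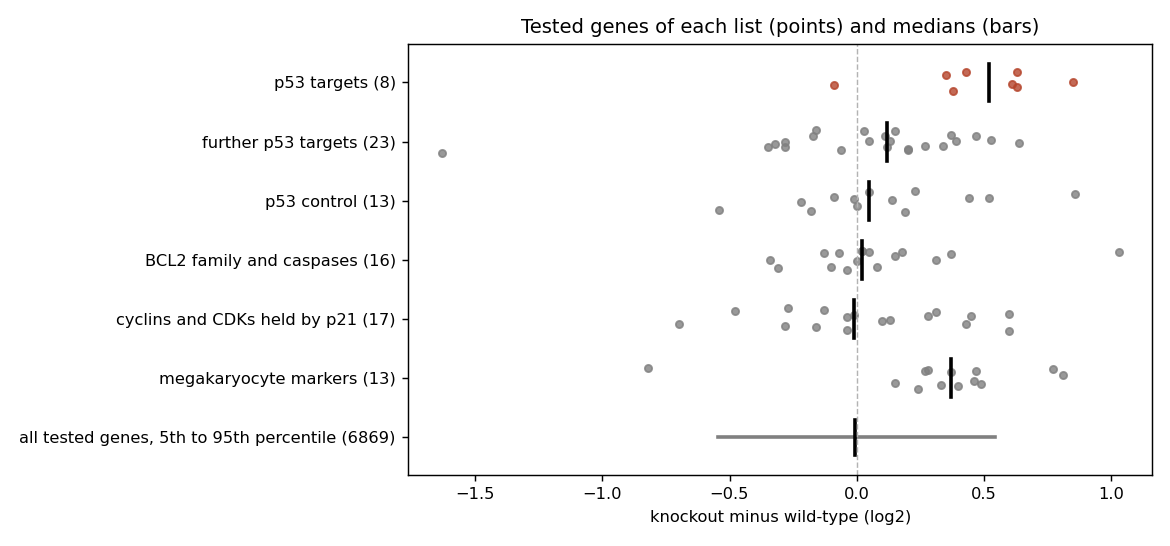
Knockout minus wild-type difference on the log2 scale of every tested gene of 6 lists (points, 1 probe per gene, number tested in parentheses) with list medians (bars), above the range from the 5th to the 95th percentile of all tested genes, -0.55 to 0.55. The p53 targets have a median of 0.52 and the megakaryocyte markers one of 0.37, against medians of -0.01 to 0.12 for the other 4 lists.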

How the data were processed

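RNA of each of the 6 samples was hybridised to 1 Illumina mouse bead array. The deposited raw table, per the file headers, lists a linear intensity, a bead standard error, a bead number and a detection p-value per probe and array. The deposited processed values are on a log2-like scale; no source used here gives their transform. BeadStudio 3.2 and lumi are named in the submitters' processing notes. In R 4.3.3 with limma 3.58.1, intensities were corrected by normexp (offset 16, negative control levels estimated through the detection p-value), quantile normalized and put on a log2 scale (neqc); the offset shrinks differences of dim probes. Testing was limited to the 9403 of 24611 probes that every array of the knockout, the wild-type or both detected at p under 0.05. Two-sided tests of knockout minus wild-type came from lmFit and eBayes, adjusted by Benjamini-Hochberg across those probes; the fit was tested on simulated data. Levels are not compared between probes, and a gene stands for its brightest tested probe where 1 value per gene is given. Tested values of the members rested on 16 to 54 beads; the number of arrays limits the precision. Symbols came from the platform annotation, updated through Entrez numbers to GRCm38.p6 (20967 matched). The files name no genome build; coordinates are those of the RefSeq sequence table.

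The members, lists, named genes and alternatives were chosen with earlier results of these data known. Named genes were all probes of the members, Srf, the 3 tested genes with the smallest p of each pathway list, the 4 genes closest to Bbc3, and the brightest gene of a marker list that varied by over 1 within a group. Monocyte and lymphocyte marker means ran from 6.87 to 7.95 and from 6.09 to 6.25 in the knockout, and from 6.68 to 8.56 and from 5.97 to 6.48 in the wild-type.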

Additional observations from a re-analysis of the deposited data

How the results depend on the processing

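With 3 arrays a group, single arrays and the background correction set the limits. The count of 15 probes passing over all genes was 9 with no filter, 6 with the replicate block, 5 with the megakaryocyte marker mean and 1955 with array weights (which gave wild-type replicate 2 a weight of 5.91 and wild-type replicate 1 one of 0.320), and 7 to 639 with 1 array left out; the cause was not tested. Of the p53 target probes 0 passed in all fits but those without wild-type replicate 1 (2 probes; 0 to 2 with 1 array left out) and with array weights (5 probes). The median difference of the 8 genes was 0.21 with the megakaryocyte marker mean and 0.30 to 0.64 with 1 array left out, and the lowest and highest of the other alternatives were 0.32 and 0.61. Direction reversed for Mdm2 with array weights (0.0015) and without knockout replicate 3 (6e-04; -0.15 to 6e-04 with 1 array left out), for the brighter Ccng1 probe without wild-type replicates 2 and 3 (-0.02) and with the megakaryocyte marker mean (-0.07), for Phlda3 with that mean (-0.19), and for Xpc (0.15) and Htra2 (-8e-04) without wild-type replicates 2 and 3. With the megakaryocyte marker mean the SE was 0.20 for the brighter Ccng1 probe and 0.30 for Phlda3. The brighter Bbc3 probe was higher in the knockout in all 18 alternatives, by 0.24 to 0.90, with adjusted p of 0.0055 to 0.82. The replicate numbers are not said to pair samples and were not taken to do so. Over all tested probes same-numbered samples did not deviate together (correlations of deviations -0.273, -0.131 and -0.089). That cannot exclude pairing, because cell type markers also differed among the arrays. Members' median deviations fell from replicate 1 to 3 in both groups (0.47 to -0.05 and -0.12 to -0.33). With the replicate block the median of the members was 0.52 and Bbc3 had an adjusted p of 0.28. Among the brightest probes, the block lowered the SE of Phlda3 (0.35 to 0.17), Zmat3 (0.22 to 0.16) and Ccng1 (0.21 to 0.15). It raised the SE of the others slightly, as for Bbc3 (0.12 to 0.15).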
